A study of Danio rerio with 6 samples.

Results

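The open chromatin described here lay at klf1 and klf9, a pair of Krüppel-like factor genes, in blood cells of adult zebrafish (Danio rerio, AB strain). The members were all regions that the deposited annotated table assigns to either gene, 10 of its 9546 regions, with 6 at klf9 and 4 at klf1. The table lists regions that the authors scored as larger in cortisol-derived than in control blood, so its rows were picked from the same contrast, and the direction of a member is not independent evidence. The cortisol group held 3 libraries of adults that had been kept in 1 µM cortisol for the first 5 days of development. The control group held 3 libraries of siblings kept in the DMSO vehicle for the same days. Both groups then grew up under normal conditions, and in each group replicate 1 was taken at 12 months, replicate 2 at 11 months and replicate 3 at 10 months. The sources differ on what a replicate was: the series description gives individual fish, 3 per group, and the study describes blood pooled from several fish of mixed sex. Accessibility was measured by ATAC-seq, in which a transposase cuts and tags DNA that is not covered by nucleosomes.

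Krüppel-like factors bind GC-rich and CACCC-type DNA through zinc fingers near the carboxyl end of the protein. Klf1 is an erythroid member, and it switches on globin, haem and membrane genes of red cells. Klf9 is transcribed in direct response to the glucocorticoid receptor, the ligand-activated factor that binds cortisol, and it acts on many genes as a repressor. Zebrafish red cells keep their nuclei, so whole blood yields chromatin mostly from the erythroid lineage, in which klf1 is used. The comparison asked whether the chromatin of the glucocorticoid-responsive gene and that of the erythroid gene differed between adults with and without early cortisol.

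The values are summit heights, the number of reads piled up at the top of a peak, recovered from the scores in the deposited peak lists. Each height was divided by the median height of the 13835 regions that had a peak in all 6 libraries, and the quotient is called the relative height, so that 1 is the typical shared region of a library. The lists held 26905 to 56695 peaks in the cortisol libraries and 29401 to 138146 in the controls. Their genome-wide backgrounds were 5.70, 6.51 and 1.98 reads in cortisol replicates 1 to 3, against 9.05, 9.02 and 3.39 reads in the controls. The median shared region stood 14.0, 18.4 and 30.8 times above background in the cortisol libraries and 7.08, 6.87 and 22.7 times in the controls, so this ratio was higher in the cortisol library of each replicate number and moved with the groups. Its part in the differences below was not tested. With the background subtracted from each height, the log2 differences of the 9 regions called in all libraries were 0.35 to 0.84, with 0.58 at the klf9 and 0.55 at the klf1 promoter. Fewer open cells and less opening per cell cannot be told apart in such bulk libraries.

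klf9 was open at its promoter, in its intron and at upstream and downstream sites, and 5 of its 6 regions were higher in all cortisol libraries than in all control libraries. At 2846 bp upstream and in the intron this rested on dividing a shared peak between neighbouring regions. At klf1 all cortisol libraries exceeded all controls at 1 of the 3 regions that were called in all libraries, the one in exon 2. The largest differences were at klf9, at 18529 bp and 3528 bp upstream and at the promoter, each about 1.6-fold. The other klf9 regions differed by 1.27- to 1.30-fold. The klf1 regions that could be fitted lay between these sets, at 1.38- to 1.45-fold. The whole-series comparison put these counts in context: all cortisol libraries exceeded all controls at 10.4% of the 8780 listed regions with a peak in every library and at 6.32% of the 13837 shared features, and fell short of them at 0.387% of those listed regions.

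**Figure D1:**
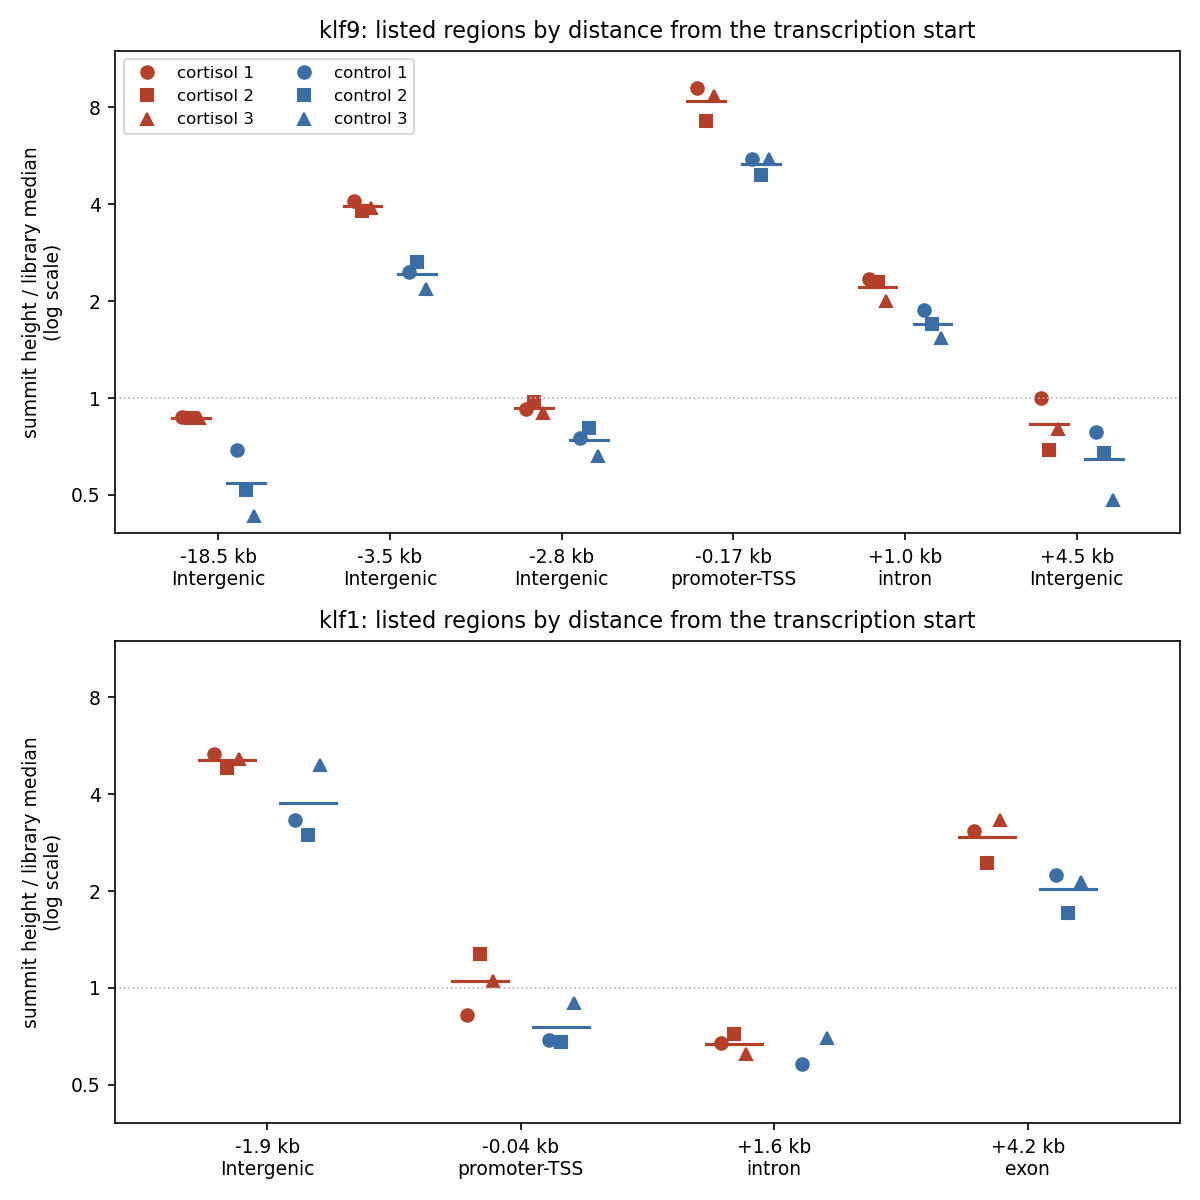
Relative summit height (log axis, library median of shared regions = 1) at the listed klf9 regions (top) and klf1 regions (bottom), ordered by distance from the transcription start; red points are cortisol libraries and blue points are controls, with marker shape giving the replicate number and bars the group mean where all 3 libraries had a peak. The klf9 promoter stood at 7.28 to 9.22 in cortisol libraries and 4.92 to 5.53 in controls. The klf1 promoter stood at 0.83 to 1.28 in cortisol libraries and 0.68 to 0.90 in controls, and the klf1 region 1939 bp upstream was the tallest of that gene.

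The klf9 promoter region (NM_001128729, ENSDARG00000068194, GRCz10 chr5:25474702-25475220, 173 bp upstream of the transcription start by its centre) was the tallest of the 10 regions. Its summit held 738, 874 and 529 reads in the cortisol libraries, against 354, 305 and 425 reads in the control libraries. Before any scaling the lowest cortisol library was above the highest control. Such heights carry the depth of a library: the median shared region held 80, 120 and 61 reads in cortisol and 64, 62 and 77 in controls. The share of all features that did the same unscaled is not given here. As relative height the promoter stood at 9.22, 7.28 and 8.68 in cortisol and 5.53, 4.92 and 5.52 in control blood. The means were 8.39 ± 1.00 in cortisol and 5.32 ± 0.35 in control libraries (SD, n = 3 each), a 1.57-fold difference. On the log2 scale the difference was 0.65 ± 0.19 (SE), with a 95% interval of 0.21 to 1.09. Ranked by score among the shared regions, the promoter lay at percentiles of 98.7, 98.7 and 99.0 in cortisol libraries and of 96.8, 97.1 and 96.4 in controls, so it was among the most open regions of both groups, with a mean gap of 2.03 points that was 1.12 points among all peaks of each library's own list. The exact two-sided permutation test gave p = 0.1 on heights, the smallest value 3 against 3 libraries allow.

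Across all features no region passed. limma over the 13837 shared features called 0 at an adjusted p under 0.05 in either direction (0% of features; 753 had an unadjusted p under 0.05). The klf9 promoter had an adjusted p of 0.67. The replicate numbers pair the libraries by age, and the study describes the controls as siblings of the treated fish. With the number as a block the same test called 94 features as higher in cortisol (0.679%) and 644 as lower (4.65%). With the block, adjusted p was 0.011 at the klf9 promoter. The block leaves little of the spread between 6 libraries, so this p leaned mainly on the spread estimated over all features. The split between higher and lower calls depends on the scaling: it was 19 to 666 when heights were scaled to the tallest shared regions and 8744 to 8 when they were scaled to the background. Scaling to the background shifted the median of all features to 0.98 on the log2 scale, against 0.03 under the main scaling. Under that scaling the promoter's difference was 1.60.

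The promoter was higher in cortisol in every same-age pair, by 0.74 at 12 months, 0.57 at 11 months and 0.65 at 10 months on the log2 scale. With the block, its call was lost when replicate number 1 was left out (adjusted p = 0.15) or number 2 (adjusted p = 0.14). With the background subtracted from each height its difference was 0.58. In the peaks the authors called on pooled libraries, the same summit held 2144 reads in pooled cortisol and 1107 reads in pooled control blood, values without replicates and not scaled for depth.

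The klf9 region 3528 bp upstream (chr5:25471332-25471880, annotated as intergenic) had the smallest standard error of the 9 fitted regions. Its heights were 328, 458 and 238 reads in cortisol libraries and 158, 164 and 168 reads in control libraries. Relative heights were 4.10, 3.82 and 3.90 in cortisol, against 2.47, 2.64 and 2.18 in controls, so the groups were far apart compared with the spread inside them. The difference was 0.70 ± 0.16 on the log2 scale (limma, adjusted p = 0.67; with the replicate block, adjusted p = 0.0071). The blocked call held under each scaling tried, with the background subtracted and with any 1 replicate number left out, where adjusted p ran from 0.011 to 0.046. Scaled to the background, the blocked fit called 8752 of the 13837 features, so passing there tells little about this region. In all these blocked fits, with or without a replicate number left out, p leaned mainly on the spread estimated over all features.

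A neighbouring klf9 region, 2846 bp upstream (chr5:25472115-25472461, intergenic), was much lower and lay partly inside the same called peak. It held 74, 117 and 55 reads in cortisol and 48, 50 and 51 reads in control libraries. Relative heights of 0.92, 0.97 and 0.90 in cortisol stood above 0.75, 0.81 and 0.66 in controls without overlap, but the difference of 0.34 ± 0.18 did not pass (with the block, adjusted p = 0.33). The groups overlapped when heights were scaled to the background or to the tallest regions. Its value rests on giving the second summit of a shared peak to it. With the highest summit of any overlapping peak instead, the difference was 1.13 and the groups overlapped (exact permutation p = 0.2).

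The farthest klf9 region, 18529 bp upstream (chr5:25456428-25456782, intergenic), was a low peak. It held 70, 104 and 53 reads in cortisol libraries and 44, 32 and 33 reads in controls. The 3 cortisol libraries had nearly the same relative height, 0.87 ± 0.0041, while the controls averaged 0.55 ± 0.13 (SD, n = 3 each) and did not reach them. A single read would shift a cortisol library by more than the cortisol SD, so that SD understates the uncertainty of these heights. In percentiles it lay at 43.9, 42.9 and 44.1 in cortisol, against 26.0, 7.2 and 14.2 in controls, the widest percentile gap of the klf9 regions at 27.8 points. Ranked instead among all peaks of each library's own list, the gap was 15.0 points (exact permutation p = 0.4). The log2 difference was 0.70 ± 0.23, with adjusted p = 0.67 without and 0.074 with the block.

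Inside the gene, the region in the single annotated intron (chr5:25475783-25476573, 1044 bp downstream of the start) held 187, 275 and 122 reads in cortisol and 120, 105 and 118 reads in control libraries. Relative heights were 2.34, 2.29 and 2.00 in cortisol and 1.87, 1.69 and 1.53 in controls, a difference of 0.38 ± 0.17 that did not pass (with the block, adjusted p = 0.18). The groups overlapped with scaling to the background or to the tallest regions, and with the highest summit of any overlapping peak. The sixth klf9 region, 4474 bp downstream of the start (chr5:25479424-25479793, intergenic), held 80, 83 and 49 reads in cortisol and 50, 42 and 37 in controls. Cortisol replicate 2, at 0.69, fell among the controls, which reached 0.78, and the difference was 0.38 ± 0.26 (with the block, adjusted p = 0.32). It was 0.18 without control replicate 3 and 0.23 without cortisol replicate 1. Scaled to the background, the groups did not overlap there.

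The klf1 promoter (NM_130936, ENSDARG00000017400, GRCz10 chr6:7893797-7894129, 44 bp upstream by its centre) was a modest peak next to that of klf9. It held 66, 153 and 64 reads in cortisol libraries and 44, 42 and 69 reads in control libraries. Relative heights were 0.83, 1.28 and 1.05 in cortisol, against 0.69, 0.68 and 0.90 in controls, so control replicate 3 lay above cortisol replicate 1. The percentile was 41.0, 61.3 and 52.4 in cortisol and 26.0, 24.1 and 45.1 in controls, well below that of the klf9 promoter in each library. The gap between groups was 19.8 points, and 2.40 points among all peaks of each library's own list (exact permutation p = 0.7). The difference of 0.47 ± 0.23 on the log2 scale (95% interval -0.06 to 1.00) did not pass (adjusted p = 0.67 without and 0.20 with the block; exact permutation p = 0.2). The same-age pairs were uneven, at 0.26, 0.91 and 0.23 for replicate numbers 1, 2 and 3. Without cortisol replicate 2 the difference was 0.32.

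The tallest klf1 region was not the promoter but the one 1939 bp upstream (chr6:7891775-7892361, intergenic). It held 427, 579 and 313 reads in cortisol libraries and 213, 185 and 380 reads in controls. Relative heights were 5.33, 4.82 and 5.13 in cortisol, against 3.33, 2.98 and 4.94 in controls. Control replicate 3 stood among the cortisol libraries, and in the 10-month pair the difference was 0.06, against 0.68 at 12 and 0.69 at 11 months. Over all libraries it was 0.48 ± 0.22 (with the block, adjusted p = 0.094). With replicate number 3 left out of the blocked fit the difference was 0.69 and adjusted p was 0.0049.

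The klf1 region in exon 2 of 3 (chr6:7898019-7898431, 4218 bp downstream of the start) held 246, 293 and 202 reads in cortisol and 144, 106 and 164 reads in control libraries. Relative heights were 3.07, 2.44 and 3.31 in cortisol, all above the 2.25, 1.71 and 2.13 of the controls. The difference was 0.53 ± 0.19 (adjusted p = 0.67 without and 0.048 with the block). This call was lost with the background subtracted (adjusted p = 0.076), with scaling to the tallest regions (adjusted p = 0.11) and with any 1 replicate number left out, and scaled to the background the groups overlapped.

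The shortest member lay in intron 1 of klf1 (chr6:7895486-7895722, 1597 bp downstream of the start), where the detailed annotation names a satellite repeat. It held 54, 86 and 38 reads in cortisol libraries and 37 and 54 reads in control replicates 1 and 3, and control replicate 2 had no peak there. The lowest peak listed for that library had 24 reads, so a lower summit would not have been listed. Relative heights of 0.67, 0.72 and 0.62 in cortisol overlapped 0.58 and 0.70 in the controls, and the region was left out of the fit because it lacked a peak in 1 library.

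**Figure D2:**
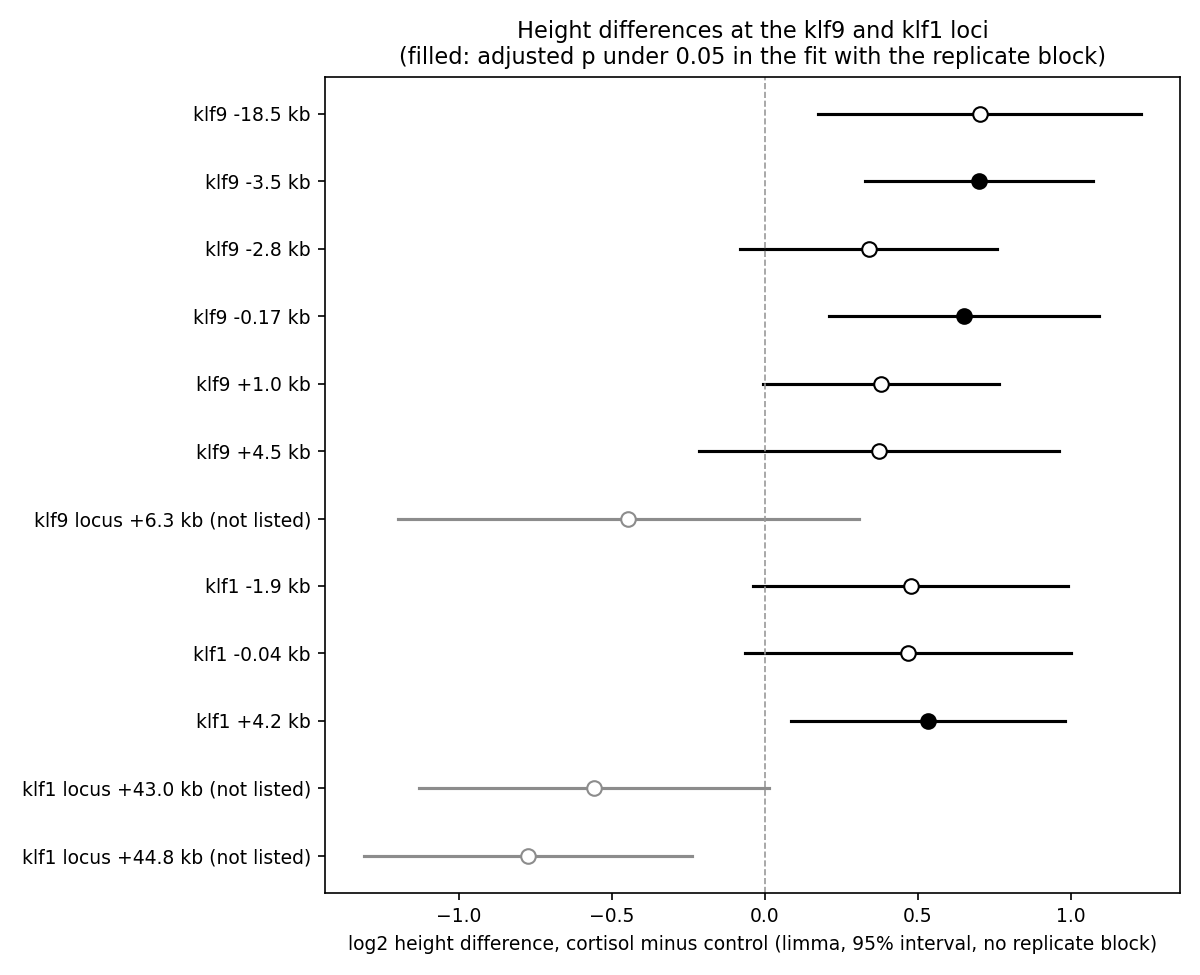
Difference in log2 summit height, cortisol minus control, with its 95% interval from limma without the replicate block (horizontal axis), for the 9 listed klf9 and klf1 regions with a peak in every library (black) and for the 3 unlisted regions within 50 kb that had one (grey); labels give the distance from the transcription start and filled points had an adjusted p under 0.05 with the block. The 9 listed regions lie at 0.34 to 0.70, with filled points at the klf9 promoter, 3528 bp upstream of klf9 and in klf1 exon 2, and the unlisted regions lie at -0.77 to -0.45. Listing was of regions scored larger in cortisol, so the direction of neither set is independent evidence.

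The 9 regions called in all 6 libraries all had a positive difference under each of the 3 scalings. Regions were listed because they scored larger in cortisol, so these signs are not independent evidence. Scaling to the background also moved the median of all features to 0.98, and all 33 other klf regions were positive there. With the block under the main scaling 3 of the 9 passed, 2 of 6 at klf9 and 1 of 3 at klf1, beside 0.679% of all features called higher. The median difference was 0.52 over the klf9 regions and 0.48 over the klf1 regions, beside 0.18 over the 8780 listed regions, of which 82.0% were positive, and 0.03 over all shared features. At 6 of the 9 regions every cortisol library exceeded every control under the main scaling, beside 10.4% of the listed regions. Scaled to the background this held at 4 (all at klf9), beside 1.29% of the listed regions, and scaled to the tallest regions at 4 (3 at klf9 and 1 at klf1), beside 5.11%. Shared peaks were divided at klf9 only, while other listed regions took their highest overlapping summit. By that rule the groups overlapped under the main scaling 2846 bp upstream of klf9 and in its intron (exact permutation p = 0.2 and 0.5). The count of 6 thus rests on the dividing.

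A ratio of both promoters within a library needs no scaling between libraries and compares the genes directly. The klf9 summit was 11.2, 5.71 and 8.27 times as tall as that of klf1 in cortisol libraries, against 8.04, 7.26 and 6.16 times in controls. The groups overlapped, with cortisol replicate 2 lowest of all. The mean log2 ratio was 3.01 ± 0.49 in cortisol and 2.83 ± 0.19 in control libraries (SD, n = 3 each), and the difference was 0.18 (exact two-sided permutation test, p = 0.6; by same-number pairs, exact sign-flip p = 0.5, where 0.25 is the smallest possible). Without cortisol replicate 1 the difference was -0.05. Set against the taller klf1 region 1939 bp upstream, the klf9 promoter was 1.73, 1.51 and 1.69 times as tall in cortisol libraries and 1.66, 1.65 and 1.12 times in controls, a log2 difference of 0.17 (exact permutation p = 0.5). With the background subtracted from both promoters the difference was 0.034 (exact permutation p = 1). With 3 libraries per group the permutation test cannot fall below 0.1, so neither exact test could have called a different response of the 2 genes at 0.05. The ratios overlapped between groups with either klf1 region as the denominator.

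**Figure D3:**
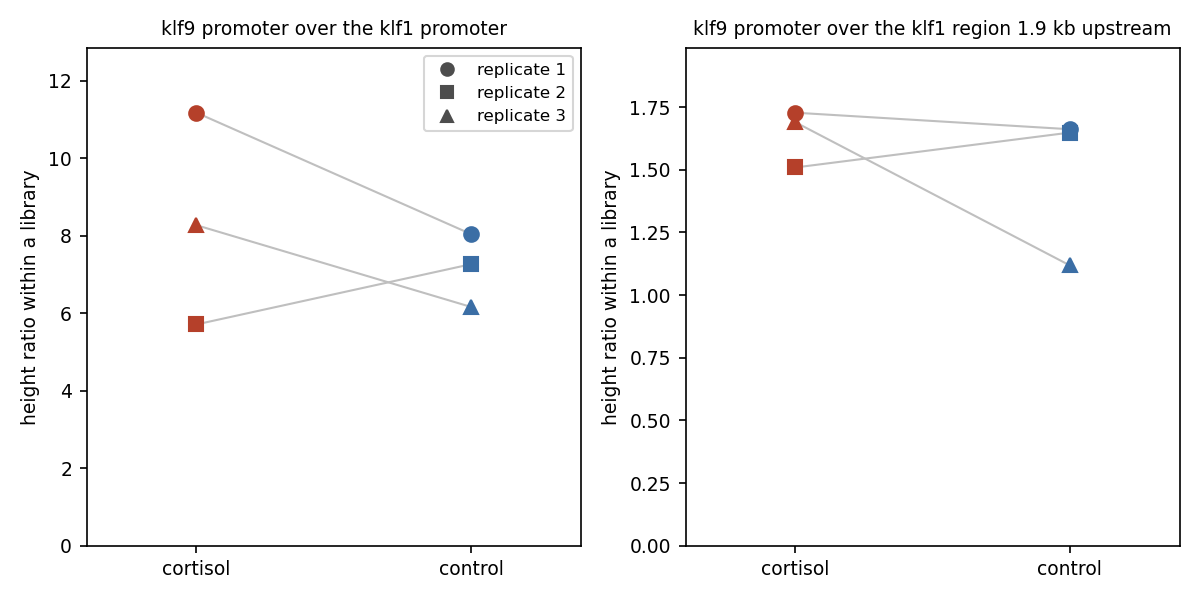
Summit height of the klf9 promoter divided by that of the klf1 promoter (left) or of the klf1 region 1939 bp upstream (right) in the same library, with cortisol libraries at the left of each panel, controls at the right, marker shape giving the replicate number and grey lines joining libraries of the same number. Ratios on the left run from 5.71 to 11.2 in cortisol and from 6.16 to 8.04 in controls, and in 2 of the 3 pairs the cortisol library is higher.

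Beyond the listed regions, the windows of 50 kb around each start held 44 other regions with a peak in at least 1 library, 16 at klf9 and 28 at klf1, and no listed region of another gene. Of these 25 were seen in 1 library only, and 17 of those were in control replicate 1, the list with the most peaks. The 3 with a peak in every library were low and none lay above all controls in the cortisol libraries. Listing was of regions scored larger in cortisol, so the direction of unlisted regions is not independent evidence. At 44814 bp downstream of the klf1 start the summits held 34, 56 and 31 reads in cortisol and 57, 56 and 48 reads in controls, and at 43041 bp downstream 34, 48 and 20 reads in cortisol and 38, 28 and 50 in controls. In relative height the cortisol libraries lay below all controls at both, with differences of -0.77 and -0.56 (with the block, adjusted p = 0.065 and 0.25). The share of all shared features that lay below all controls is not given here, so this count has no background. At 6252 bp downstream of klf9 the groups overlapped, with 35, 38 and 14 reads in cortisol and 34, 27 and 26 reads in controls. The median of these 3 differences was -0.56, and 0.39 under scaling to the background. A region 5218 bp downstream of klf9 was listed in the 3 cortisol libraries alone, at 20, 20 and 18 reads. Control lists began at 23, 24 and 14 reads, so a summit of 20 reads would not have been listed in control replicates 1 and 2, while the list of control replicate 3 held no peak there.

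Other Krüppel-like factor genes supplied 33 listed regions at 8 genes, each with a peak in every library. Their median difference was 0.17, close to the 0.18 of all listed regions, and 26 of 33 were positive under the main scaling, 33 under scaling to the background and 21 under scaling to the tallest regions. None passed, with or without the block, where the lowest adjusted p was 0.052. Cortisol lay above all controls at 4 of the 33 regions, a share near the 10.4% of all listed regions. These were the klf17 promoter, the klf13 promoter, a klf11a region at the transcript end and a klf11b region 9349 bp downstream.

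The 6 other klf promoters were all positive, at 0.15 to 0.46. klf17 had relative heights of 1.69, 1.74 and 1.80 in cortisol libraries and 1.05, 1.21 and 1.61 in controls, a difference of 0.46 ± 0.20. klf11b stood at 8.41, 7.51 and 10.1 in cortisol and 5.64, 5.64 and 8.70 in controls, overlapping through control replicate 3. klf6a was about as tall as klf9 in cortisol libraries, with 9.90, 7.87 and 8.81. In controls it was taller, with 8.32, 6.74 and 8.88 against 5.53, 4.92 and 5.52 at klf9. Its groups overlapped, with a difference of 0.15. klf13 had 4.10, 3.83 and 4.05 in cortisol and 3.54, 2.81 and 3.21 in controls. klf15, a glucocorticoid-responsive metabolic factor in mammals, had 1 listed region, in an intron, at 0.90, 0.76 and 0.61 in cortisol and 0.84, 0.74 and 0.66 in controls. The klf1 promoter was the lowest of the 8 klf promoters in mean relative height in both groups.

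**Figure D4:**
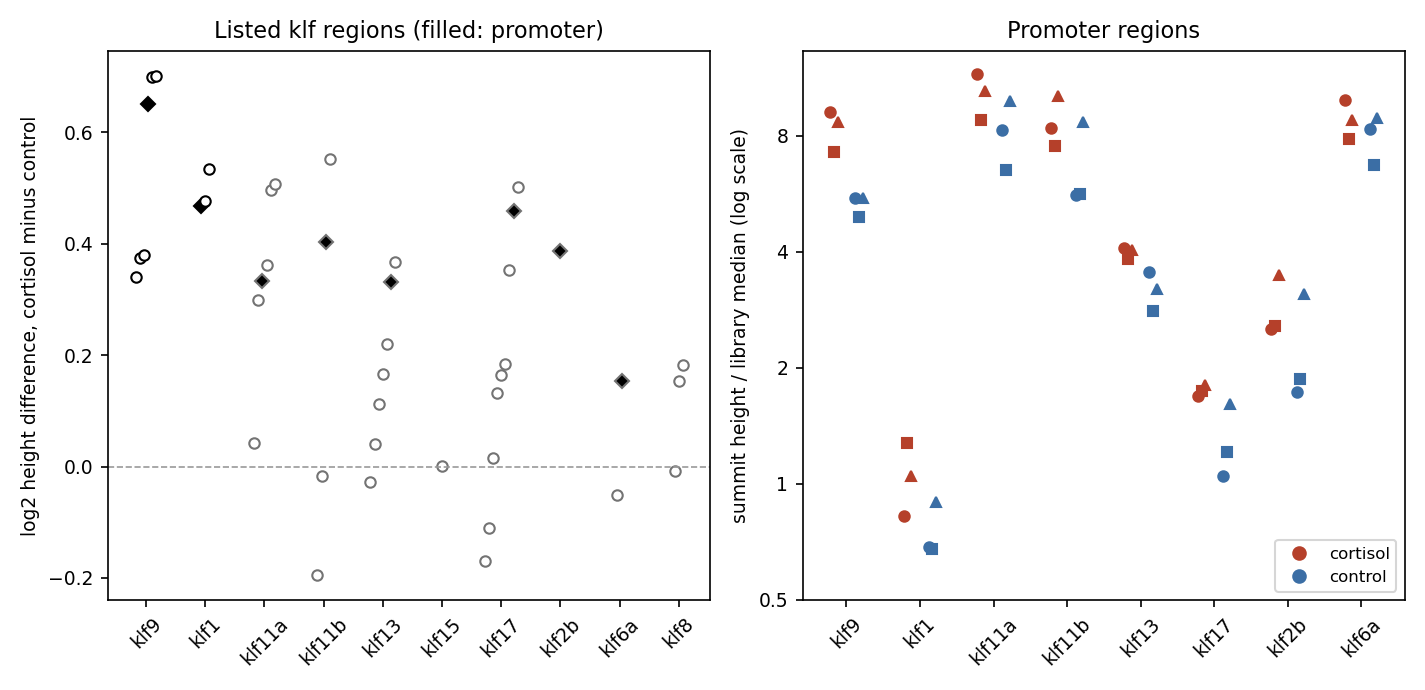
Left, log2 height difference (cortisol minus control) at each listed klf region with a peak in every library, by gene, with filled diamonds for promoters and open circles for other regions; right, relative height (log axis) at the 8 klf promoters, cortisol libraries in red at the left of each gene and controls in blue, with marker shape giving the replicate number. klf9 holds the 3 highest differences (0.65 to 0.70), the other genes reach at most 0.55, and 7 regions of other klf genes lie below 0.

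Lists of known genes served as context, taking for each gene its tallest listed promoter with a peak in all libraries. Of 31 glucocorticoid-responsive genes 14 had such a promoter. Among the 4171 genes with a listed promoter the median difference was 0.19, 3531 were positive and 392 (9.40%) were higher in cortisol without overlap. For the 14 glucocorticoid-responsive genes the median was 0.25, 13 were positive and 1, the receptor gene nr3c1 itself, did not overlap between groups. The tallest were stat3, a cytokine-activated transcription factor, with a difference of 0.24, txnipa, a thioredoxin-binding protein, with 0.25, sgk1, a glucocorticoid-induced kinase, with 0.25, and fkbp5, a chaperone that holds back the receptor, with 0.28. None passed with the block, and the highest difference of the list was that of glcci1 at 0.46, beside 0.65 at the klf9 promoter.

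Beside the erythroid list stand the same 4171 genes, with a median of 0.19, 3531 positive and 9.40% higher in cortisol without overlap. Of 30 erythroid genes 17 had a listed promoter in all libraries, with a median difference of 0.33, 16 positive and 1, fech of haem synthesis, without overlap. The tallest were mir144, a red cell microRNA gene (0.42), slc4a1a, the band 3 anion exchanger (0.38), hbaa1, an alpha globin (0.44), and aqp1a.1, a water channel (0.37). The difference at the klf1 promoter, 0.47, lay within the range of this list, -0.11 to 0.57, and above its median. Of the 17 only cahz (0.57) and gata1a (0.48) were higher, and none passed with the block. Thrombocyte markers had 2 of 7 genes with a listed promoter in all libraries, and myeloid and lymphoid markers 0 of 12 each. A listed region of any kind was present for 3 of the 12 myeloid and 2 of the 12 lymphoid markers. Since the table lists regions scored higher in cortisol, a marker without a row is not shown to be closed, and the part of cell composition was not tested.

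Promoters whose pattern over the 6 libraries was nearest to that of klf9 were arl6ip5b, gstm.3, tbc1d25, mtm1 and tmem214, with root mean square distances of 0.070 to 0.12 on the log2 scale, among 4293 promoters of other genes. Those nearest to klf1 were kat7b, zgc:163057, zgc:55741, kdm4c and myeov2, at 0.078 to 0.11. The klf9 and klf1 promoters were 0.32 apart. This is a description over 6 libraries, which share ages between the groups and differ in depth.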

How the data were processed

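Per the labels and the study's methods, the authors trimmed reads with Trimmomatic 0.32, shortened them to 30 bp and mapped these to GRCz10 (Bowtie 1.0.0). After mitochondrial reads were dropped with SAMtools 0.1.18, the authors called peaks with MACS2 2.1.1.20160309 at q of 0.001 against a single genome-wide background with duplicates kept, and annotated regions with HOMER 4.8. Bowtie was allowed up to 3 places per read, so repeats share reads. The deposited score of a peak is 10 times −log10 q as a whole number. The authors' comparison score in the annotated table and the separate lists of their comparison were not used. The table gave positions, distances and gene names.

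Heights were recovered from the steps between scores with Python 3.11.15 (numpy 2.4.6, scipy 1.17.1), and the method was tested on data simulated with its own score formula. At the members, 56 of 59 heights came out within 0.15 of a whole read. The recovery fits score steps to whole reads, so this is not an independent check. Where 1 called peak covered 2 listed klf9 regions, the first summit went to the upstream region and the highest of the rest to the downstream one. Every other listed region took its highest overlapping summit. Overlap of 1 bp counted as shared. Log2 heights less the library median were fitted with limma 3.58.1 (R 4.3.3, trend, Benjamini-Hochberg over 13837 features). Single values had exact permutation or sign-flip tests. The limma p-values use the spread between these libraries, drawn toward a trend estimated over all features. In fits scaled to the background and in blocked fits without replicate number 1 or 2, they rest almost wholly on that trend. The other blocked fits, with those behind the calls at the klf9 promoter and 3528 bp upstream, also lean mainly on it. Deviations of same-numbered libraries from their group means correlated at r = 0.65, 0.18 and 0.63, and those of differently numbered ones at -0.62 to 0.15. The 0.18 of number 2 was thus close to the 0.15 of cortisol replicate 1 with control replicate 2. Deviations from a group mean constrain one another, so these values are not independent. The labels give same-numbered libraries 1 age, and the number was used as a block.

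Named genes were every klf region, the 5 nearest promoters, and the tallest members of the lists, since the authors' score was not used. Members and lists were chosen with earlier results of these data known. Read depth itself is not given, and background and list length stand in its place. List length did not follow background: control replicates 1 and 2 had 9.05 and 9.02 reads of background but 138146 and 63072 peaks. Precision is limited by 3 libraries per group, and intervals cover only the spread between libraries, moderated over features.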

Additional observations from a re-analysis of the deposited data

How the results depend on the processing

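Counts of calls moved with scaling and with the replicate block, and medians with scaling. Regions called by limma numbered 0 without the block under each setting and leave-one-out, and 738 with the block, 8752 with the block and scaling to the background, 685 with the block and scaling to the tallest regions, 566 with the block and the background subtracted, and 488, 174 and 2334 with the block and replicate number 1, 2 or 3 left out. The klf9 promoter difference was 0.65 without a block, where leaving out libraries gave 0.58 to 0.75. It passed with the block at 0.65, and also with the block scaled to the background (1.60), scaled to the tallest regions (0.52) or with the background subtracted (0.58). The klf1 promoter passed with the block scaled to the background, at 1.42, where the median of all features was 0.98, and in no other fit. Leaving out libraries or replicate numbers gave it 0.25 to 0.63. The klf9 to klf1 ratio was -0.050 without cortisol replicate 1 and 0.43 without cortisol replicate 2, and 0.034 with the background subtracted. Its exact tests cannot fall below 0.1 with 3 against 3 libraries, so their p-values say nothing on its stability. The median of the other klf regions was 1.12 scaled to the background and 0.039 scaled to the tallest regions. That of the unlisted regions near both genes was 0.39 scaled to the background. The klf9 regions 18529 bp, 2846 bp, 1044 bp and 4474 bp from the start passed with the block scaled to the background and in no other fit. The klf1 region 1939 bp upstream passed in that fit and with the block without replicate number 3 (0.69), and the region in klf1 exon 2 with the block under the main scaling and scaled to the background. Ranked among all peaks of each library's own list, the percentile gap at 3528 bp upstream of klf9 was 2.49 points, against 7.24 among the shared regions, and at 2846 bp upstream 0.79, against 13.8. With undivided peaks the klf9 intron region differed by 0.50 and the groups overlapped (exact permutation p = 0.5). Without control replicate 3 and without the block, 3623 features had an unadjusted p under 0.05 and the lowest adjusted p was 0.062. Whole-series depth limits the low regions, since lists began at 10 to 24 reads. The settings chosen after seeing the data were the subtraction of background, the undivided multi-summit peak, the second klf1 denominator and the blocked fits combined with another setting.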
